A study of Mus musculus with 8 samples.

Results

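The B cell identity genes are 9 genes that B lymphocytes use to become and to act as B cells: Pax5, Ebf1, Cd79a, Cd79b, Ms4a1, Cr2, Blk, Bank1 and Fcer2a. They were chosen by name, and they are 9 of 36297 genes that the peak lists of the study name beside a peak. Across 6 lists, 103 of 329018 peaks lay at distance 0 from one of them, which means that the peak overlapped the gene according to the lists. A further 22 peaks lay above 0 and up to 10000 bp away and are kept apart.

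The study asked whether house dust mite allergen (HDM) given to mothers alters the lung DNA of their offspring. Methylated DNA (5mC) was captured by MeDIP-seq and hydroxymethylated DNA (5hmC) by hMeDIP-seq from lungs of C57BL/6J male offspring. For each assay, 1 library was made per group from DNA pooled over offspring of 3 dams, with fragments of about 200 bp, so no group has a replicate and no test between groups was possible. The deposited peak lists compare a first library with a second in 3 ways.

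The groups differ in the treatment of dam (F0) and offspring (F1). At 2 weeks before mating, the dams of F0-HDM_F1-HDM and F0-HDM_F1-Saline mice were injected i.p. with 100 µg of HDM protein, and the dams of F0-Saline_F1-HDM and F0-Saline_F1-Saline mice with PBS. The same agent was then instilled i.t. 3 times a week through pregnancy and until 3 weeks after birth. At 6 weeks of age, the male offspring of the F1-HDM groups were sensitized with HDM and challenged with it on d14, d18 and d21, whereas the F1-Saline groups received saline, and lungs were studied at d23. In the maternal-plus-adult comparison, F0-HDM_F1-HDM was searched against F0-Saline_F1-HDM. In the maternal comparison, F0-HDM_F1-Saline was searched against F0-Saline_F1-Saline, and in the adult comparison F0-Saline_F1-HDM against the same control. Which library was searched and which was the control is read from the labels. The F0-Saline_F1-HDM library was thus the first of the adult comparison and the second of the maternal-plus-adult comparison, and the F0-Saline_F1-Saline library was the second of the maternal and of the adult comparison. The lists are therefore not independent of each other, and peaks at the same place in several lists are given side by side only.

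B cell fate is set by a network of transcription factors in which Ebf1 opens B lineage genes and Pax5 then holds the cell to the lineage. Mature B cells sense antigen through a surface receptor that signals by way of the Cd79a and Cd79b chains, Src family kinases and adaptor proteins. B cells also give rise to the plasma cells that make IgE in allergy. The methylated base 5mC is read by MeDIP-seq, and 5hmC, its oxidized form, is known to be found in gene bodies. Whole lung was used, in which B cells are a minority, and the peak lists give no measure of how many there were. Fewer B cells and less of a mark per B cell cannot be told apart from these lists.

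A peak in these lists has a position on GRCm38 (mm10), a peak shape score from the authors' peak caller, with no unit, and the authors' p, which is the upper normal tail of that score. The lists hold peaks with a p up to 0.1, which is a score of 1.28 and above. They do not say whether a mark was gained or lost, and they hold no reads, so how many reads stand behind a given peak is not known, and no interval can be given. A higher score is read here only as a more strongly shaped peak of the first library, within its own list.

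The following 6 stretches of the reference show what kind of DNA carried the peaks. Each line gives 121 bp around the centre of the strongest peak that the named gene had in the assay, on the plus strand of GRCm38, with CpG sites, the sites where both marks are mostly placed, in capitals. Peaks in untranslated exons and in multi-copy repeats were passed over for these lines. The exon or intron named is that of the whole peak. In Ebf1 the peak touches the end of exon 6. The 121 bp printed for it lie in intron 6 of the principal transcript, within a longer exon of another transcript.

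Pax5 exon 5, hMeDIP-seq, chr4:44679437-44679557: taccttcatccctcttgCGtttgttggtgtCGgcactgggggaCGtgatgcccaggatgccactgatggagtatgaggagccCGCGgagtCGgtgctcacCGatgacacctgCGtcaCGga

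Ebf1 exon 6, hMeDIP-seq, chr11:44643549-44643669: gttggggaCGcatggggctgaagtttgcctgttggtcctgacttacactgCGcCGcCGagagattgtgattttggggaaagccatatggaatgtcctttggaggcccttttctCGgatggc

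Ms4a1 intron 1, hMeDIP-seq, chr19:11260778-11260898: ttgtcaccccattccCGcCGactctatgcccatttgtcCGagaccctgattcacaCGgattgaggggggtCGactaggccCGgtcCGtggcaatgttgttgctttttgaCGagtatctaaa

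Pax5 intron 8, MeDIP-seq, chr4:44547559-44547679: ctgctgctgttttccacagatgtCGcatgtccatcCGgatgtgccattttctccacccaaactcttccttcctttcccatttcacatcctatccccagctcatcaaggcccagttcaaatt

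Fcer2a intron 9, MeDIP-seq, chr8:3685277-3685397: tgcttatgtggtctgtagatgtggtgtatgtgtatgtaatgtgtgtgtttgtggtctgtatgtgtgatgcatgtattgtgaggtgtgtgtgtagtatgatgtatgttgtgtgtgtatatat

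Bank1 intron 8, MeDIP-seq, chr3:136101578-136101698: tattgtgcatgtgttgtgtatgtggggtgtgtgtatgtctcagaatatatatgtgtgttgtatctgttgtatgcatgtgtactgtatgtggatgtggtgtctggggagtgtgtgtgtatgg

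The hMeDIP-seq stretches of Pax5, Ebf1 and Ms4a1 held 9, 5 and 8 CpG sites. The MeDIP-seq stretch of Pax5 held 2, and those of Fcer2a and Bank1 held 0 and were built largely of TG repeats.

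The peaks were spread unevenly over the 9 genes. Pax5 had 52 peaks at distance 0 and Bank1 had 41, so that these genes together held 93 of the 103 peaks (90.3%), and each had peaks in all 6 lists. Of the 41 peaks of Bank1, 32 lay in 2 stretches of repeated DNA, which are described with that gene. Blk had 5 peaks, Fcer2a 3, and Ms4a1 and Ebf1 1 each. By its annotated span of 391 kb, the longest of the 9, Ebf1 held 18 peaks, 17 of which the lists gave to other genes. Cd79a, Cd79b and Cr2 had 0 peaks at distance 0 in every list. Among the genes without a peak, Cd79a spans 4.82 kb, Cd79b 3.42 kb and Cr2 39.9 kb, whereas Pax5 spans 186 kb and Bank1 273 kb.

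**Figure D1:**
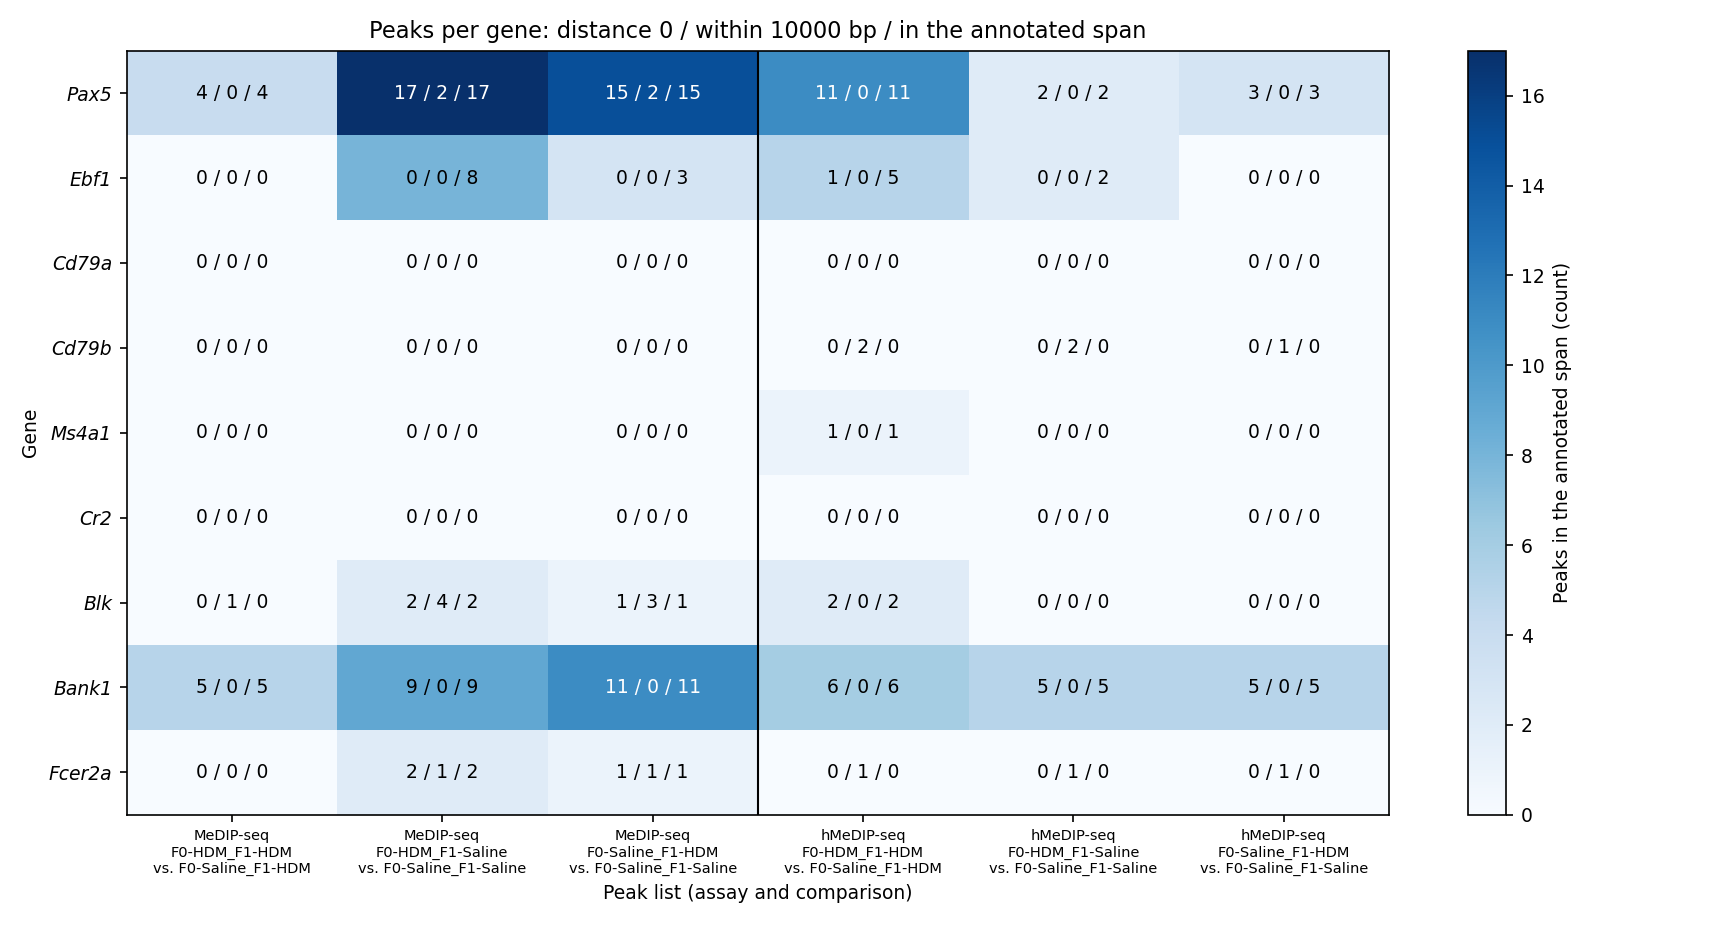
Peaks of each of the 9 B cell genes (vertical axis) in each of the 6 peak lists (horizontal axis). Every cell gives the number of peaks at distance 0, the number above 0 and up to 10000 bp away, and the number in the annotated span, which also sets the shade. The Pax5 and Bank1 rows hold counts in every list, and the Cd79a and Cr2 rows hold 0 throughout.

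By MeDIP-seq, 2 of the 9 genes had a peak in the maternal-plus-adult comparison, 4 in the maternal comparison and 4 in the adult comparison. Of all genes named in the lists, 7.67%, 34.4% and 27.9% had such a peak in those 3 lists, in the same order. By hMeDIP-seq, 5 of the 9 genes had a peak in the maternal-plus-adult comparison, 2 in the maternal and 2 in the adult comparison, beside 39.3%, 22.2% and 24.3% of all genes. Shares of 9 genes move in steps of 1 gene, and long genes hold more peaks: among 2516 genes of 100 kb or more, 39.4%, 88.6% and 82.5% had a MeDIP-seq peak, and 84.5%, 64.4% and 66.1% an hMeDIP-seq peak, in the same order of lists. Pax5, Ebf1 and Bank1 are of this length and the other 6 members are shorter.

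Per length, the assays differed in these genes. The MeDIP-seq lists held 0.927, 3.92 and 3.19 peaks per 100 kb of the members' spans in the maternal-plus-adult, maternal and adult comparisons, beside 0.466, 4.03 and 2.74 per 100 kb over 21955 protein-coding genes. The members' density was 1.99, 0.973 and 1.17 times that of coding genes. The hMeDIP-seq lists held 2.58, 0.927 and 0.824 peaks per 100 kb of the members, beside 4.62, 1.57 and 1.79 for coding genes, which is 0.558, 0.592 and 0.461 times as many. In all 3 hMeDIP-seq lists the B cell genes thus held fewer peaks per length than coding genes at large, by description and without a test. Among the long coding genes alone, the median of single-gene densities was 0, 3.24 and 2.20 MeDIP-seq peaks and 2.66, 0.872 and 0.866 hMeDIP-seq peaks per 100 kb. The hMeDIP-seq medians were close to the members' densities in the same lists. The members' values pool all their spans, however, so the measures are unlike. Part of the members' peaks lay in 2 multi-copy stretches of Bank1, which are described with that gene. Without them the members held 0.412, 3.40 and 2.58 MeDIP-seq peaks per 100 kb, which is 0.884, 0.844 and 0.94 times the density of coding genes. They held 1.96, 0.412 and 0.309 hMeDIP-seq peaks per 100 kb, which is 0.424, 0.263 and 0.173 times that density and below the medians of long genes. The coding genes kept their own multi-copy peaks in these ratios.

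Pax5 encodes the paired box factor that commits cells to the B lineage. The gene lies on chromosome 4 from 44524757 to 44710487 on the minus strand, and its principal transcript in GENCODE vM21 has 10 exons. By MeDIP-seq, Pax5 had 4 peaks in the maternal-plus-adult comparison, 17 in the maternal comparison and 15 in the adult comparison, and by hMeDIP-seq it had 11, 2 and 3. This is the reverse order in the 2 assays: the maternal-plus-adult list was the poorest in MeDIP-seq peaks and the richest in hMeDIP-seq peaks. The whole lists show the same order, with 13338, 88438 and 63967 MeDIP-seq peaks and 89177, 38333 and 35765 hMeDIP-seq peaks, except that the last 2 hMeDIP-seq lists change places. Per 100 kb, Pax5 had 2.15, 9.15 and 8.08 MeDIP-seq peaks and 5.92, 1.08 and 1.62 hMeDIP-seq peaks, all above the medians of long coding genes given above.

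The strongest hMeDIP-seq peak of Pax5 lay on exon 5. In the maternal-plus-adult comparison it spanned 44679325 to 44679667 with a score of 3.35 (the authors' p = 4.03e-04), within the top 4.72% of that list. At the same exon the maternal comparison had a peak with a score of 1.36 (the authors' p = 0.0873) and the adult comparison one with a score of 1.8 (the authors' p = 0.0357). This place, from 44679110 to 44679826, was the only one in Pax5 with a peak in all 3 hMeDIP-seq lists, with peak centres 30986 to 31094 bp inside the gene. The noncoding gene Gm12462 runs across exon 5 on the opposite strand, so the DNA belongs to both.

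Other exons of Pax5 also carried hMeDIP-seq peaks. In the maternal-plus-adult list, a peak on exon 6 (44645489 to 44645834) scored 2.11, 1 on exon 8 (44569929 to 44570250) scored 1.41, 1 on the coding part of exon 10 (44531322 to 44531648) scored 1.75 and 1 on its untranslated part (44528746 to 44529097) scored 1.89. In the adult list the exon 8 peak (44569613 to 44570409) scored 1.57. Over the 3 lists, 8 of 16 hMeDIP-seq peaks in Pax5 touched an exon (50%), against 32.2% of the hMeDIP-seq peaks in coding genes of 100 kb or more and 54.9% of those in all coding genes. Of its MeDIP-seq peaks, 4 of 36 did (11.1%), against 8.61% in long coding genes and 19.6% in all coding genes.

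Among the hMeDIP-seq peaks in introns, that from 44551292 to 44551649 in intron 8 scored 2.26 in the maternal-plus-adult list and the overlapping peak of the adult list scored 1.31. In intron 7, the peak from 44593347 to 44593692 scored 1.69 in the maternal-plus-adult list and its counterpart in the maternal list 1.35. These, with exon 5 and exon 8, are all the hMeDIP-seq peaks that Pax5 had in the maternal and adult lists, and the maternal-plus-adult list had a peak at each of these places. The other 7 of the 11 hMeDIP-seq places in Pax5 had a peak in the maternal-plus-adult list alone.

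The MeDIP-seq peaks of Pax5 lay at other places. Of 29 places in the gene, 1 had peaks of both assays, from 44569613 to 44570572 at exon 8, where the maternal MeDIP-seq list had a peak with a score of 1.37 in the adjoining intron 7. Another 4 places had a peak in each of the 3 MeDIP-seq lists. The strongest of them lay in the untranslated part of exon 10, from 44525848 to 44526277, and scored 1.84 in the maternal-plus-adult, 2.16 in the maternal and 2.50 in the adult comparison (the authors' p = 0.0327, 0.0156 and 0.00619). The place in intron 8 from 44542754 to 44543319 scored 1.34, 1.60 and 2.06 in the same lists. The place in intron 6 from 44644395 to 44644812 scored 1.41, 1.57 and 1.82, and the place in intron 5 from 44651927 to 44652415 scored 1.29, 1.8 and 1.84.

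At all 4 places the score was lowest in the maternal-plus-adult list and highest in the adult list. These 4 were also all the MeDIP-seq peaks that Pax5 had in the maternal-plus-adult comparison. Scores of different lists were not scaled to each other, so their order over lists is a description of the lists. In the maternal list the strongest MeDIP-seq peak lay in intron 8 from 44547431 to 44547831 with a score of 2.27 (the authors' p = 0.0117), and the adult list had a score of 2.02 there. A pair of further places lay 130 to 2922 bp beyond the 3′ end of the gene, both with peaks in the maternal and adult MeDIP-seq lists and scores of 1.75 to 1.81.

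**Figure D2:**
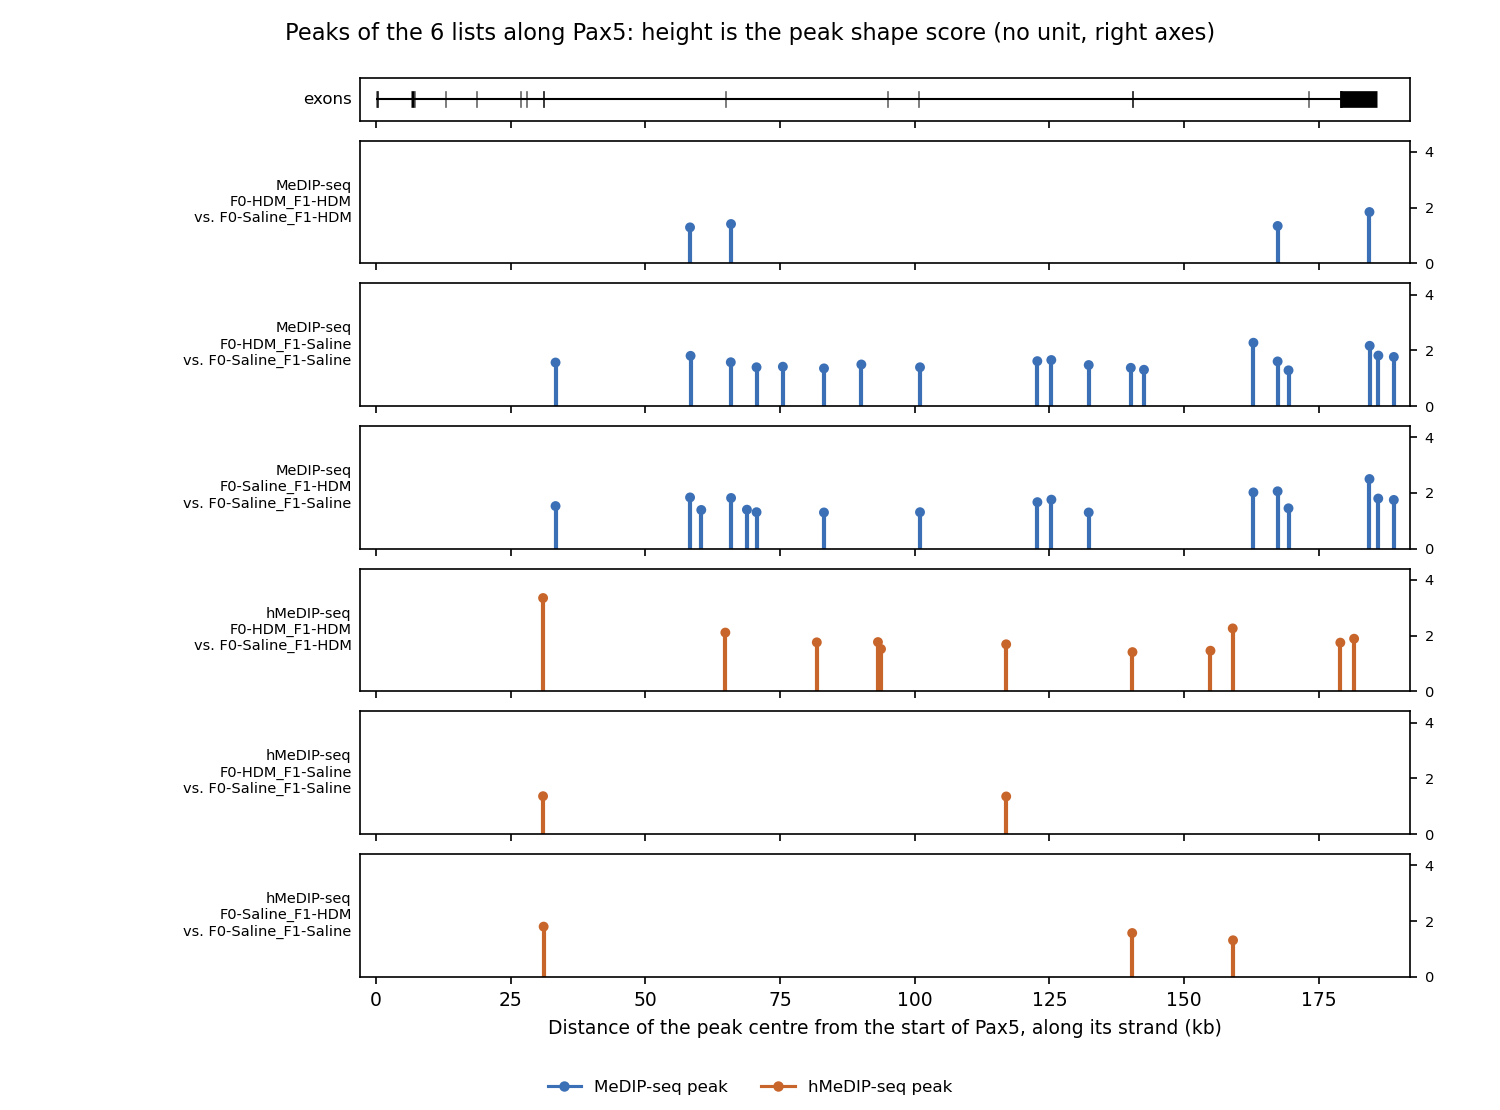
Peaks along Pax5 by distance of the peak centre from the start of the gene, in kb along its strand (horizontal axis), with 1 panel per list and the peak shape score, which has no unit, as the height of each line. The top panel shows the exons of all its transcripts. The hMeDIP-seq peak on exon 5, 30990 bp from the start in the maternal-plus-adult list, stands in all 3 hMeDIP-seq panels with scores of 3.35, 1.36 and 1.8, and no peak of either assay lies nearer to the start.

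No peak lay near the RefSeq start of Pax5. The RefSeq promoter window of Pax5 (250 bp before to 50 bp after its start, on GRCm38) holds 23 CpG sites, the most of the 9 windows that the table gives for 6 of the members, and had 0 peaks. The nearest Pax5 peak was centred 31293 bp from that window. Starts of shorter transcripts were closer: the hMeDIP-seq peak on exon 6 was centred 65 bp from an annotated start, and the MeDIP-seq peaks of the place in intron 6 lay 1074 to 1128 bp from it. Intron 5 of Pax5 is known to hold a B cell enhancer in the mouse. Its coordinates are in none of the files used here, so no peak was assigned to it.

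Ebf1 encodes early B cell factor, which acts upstream of Pax5 and is also used by other cell types, among them stromal cells. It lies on chromosome 11 from 44617317 to 45008091 on the plus strand, 391 kb with 16 exons in its principal transcript. The gene columns of the lists named Ebf1 for 1 peak only, an hMeDIP-seq peak of the maternal-plus-adult comparison on exon 6, from 44643426 to 44643779, with a score of 1.66 (the authors' p = 0.0480). By its annotated span, however, Ebf1 held 18 peaks. For the other 17 the columns named the noncoding genes Gm12158, which lies inside Ebf1, and Gm12159, beyond its end, and left Ebf1 out.

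By span, Ebf1 had 0, 8 and 3 MeDIP-seq peaks in the maternal-plus-adult, maternal and adult comparisons, and 5, 2 and 0 hMeDIP-seq peaks. Per 100 kb these were 0, 2.05 and 0.768 MeDIP-seq peaks and 1.28, 0.512 and 0 hMeDIP-seq peaks, at or below the medians of long coding genes in each list. The MeDIP-seq peaks scored 1.32 to 1.87. The highest lay in intron 10 (44937264 to 44937648, maternal comparison), within the top 21.2% of its list, and the adult comparison had a score of 1.59 there. On exon 14, the maternal and the adult list had MeDIP-seq peaks with scores of 1.38 and 1.54 (44992163 to 44992589).

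The hMeDIP-seq peaks of Ebf1 scored 1.35 to 1.66. After that on exon 6, the strongest lay in intron 6 from 44741003 to 44741345 with a score of 1.63 in the maternal-plus-adult list. In intron 11, from 44980008 to 44980511, the maternal-plus-adult list had a score of 1.36 and the maternal list one of 1.38. The maternal list also had a peak on exon 8 (44883666 to 44884094) with a score of 1.35. A peak in intron 6 from 44777545 to 44777885, with a score of 1.58, held a match to the palindromic motif bound by EBF proteins, searched as TCCC, any 2 bases and GGGA, which reads alike on both strands. It was the 1 peak with a match among 120 in the members' spans, and 0.390% to 1.61% of all peaks of a list had one. No peak of either assay overlapped the pair of RefSeq promoter windows of Ebf1, which hold 9 and 17 CpG sites.

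**Figure D3:**
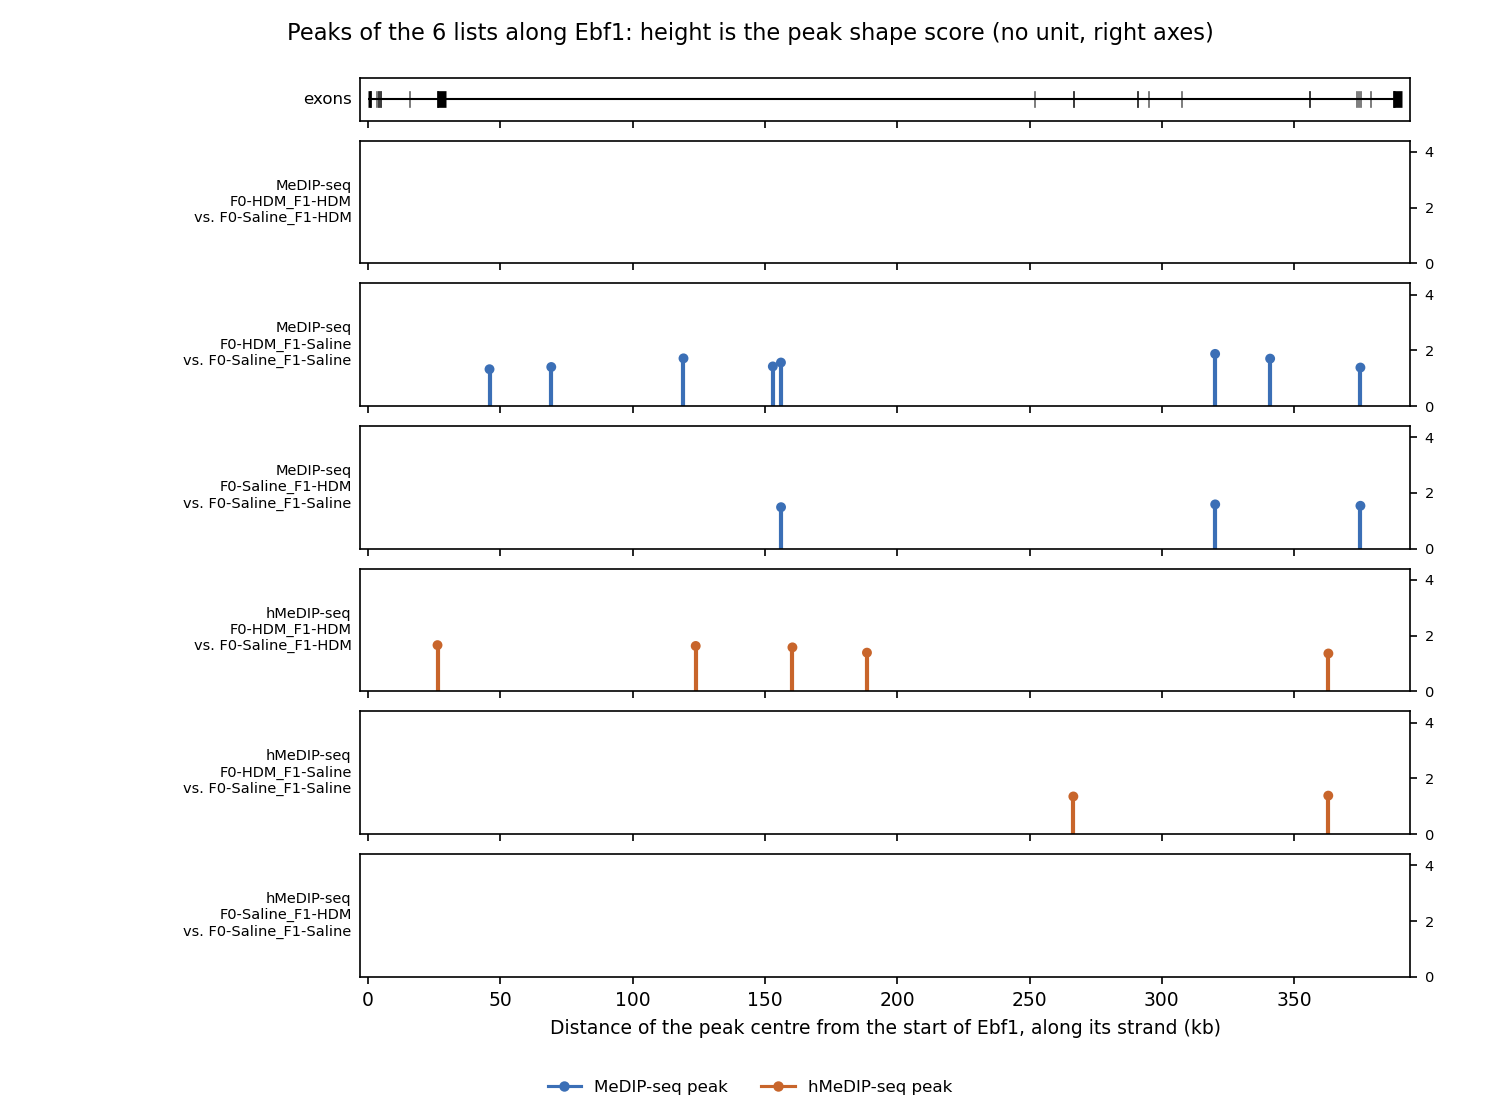
Peaks along Ebf1 by distance of the peak centre from the start of the gene, in kb along its strand (horizontal axis), with 1 panel per list and the peak shape score, which has no unit, as height. The top panel shows the exons of all its transcripts. Only the exon 6 peak of the maternal-plus-adult hMeDIP-seq list, at a score of 1.66, was assigned to Ebf1 by the lists. All scores are at or below 1.87, and the maternal-plus-adult MeDIP-seq panel and the adult hMeDIP-seq panel are empty.

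The antigen receptor chains, which carry the signal of the bound antigen into the cell, had no listed peak within their genes. Cd79a, on chromosome 7 from 24897381 to 24902197, had 0 peaks at distance 0 and 0 within 10000 bp in every list, and its promoter window holds 8 CpG sites. Cd79b, on chromosome 11 from 106311341 to 106314762, had 0 peaks at distance 0 and 5 hMeDIP-seq peaks within 10000 bp. All 5 lay inside Scn4a, a sodium channel gene upstream of Cd79b. The nearer place, 5560 to 5798 bp away (106320323 to 106320973), scored 2.12 in the maternal-plus-adult, 1.92 in the maternal and 1.62 in the adult comparison. The farther place, 9463 to 9533 bp away (106324226 to 106324695), scored 1.96 in the maternal-plus-adult and 1.57 in the maternal comparison. Scores of different lists were not scaled to each other. Within their own lists, the peaks of the nearer place were in the top 32.1%, 30.4% and 63.2%, in the same order. Cd79b had 0 MeDIP-seq peaks within 10000 bp.

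How common a peak within 10000 bp was over the genome differed by list. By MeDIP-seq, 1 of the 9 genes had one in the maternal-plus-adult comparison, and 3 each in the maternal and adult comparisons, beside 6.73%, 40.0% and 30.9% of all genes. By hMeDIP-seq, 2 of the 9 genes had one in each comparison, beside 36.9%, 18.5% and 18.1% of all genes.

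Of the signalling molecules, Blk encodes a Src family kinase of the B cell receptor, on chromosome 14 from 63372836 to 63417037 on the minus strand, 44.2 kb with 13 exons. Its strongest peak was an hMeDIP-seq peak on exon 13, the last exon, in the maternal-plus-adult comparison, from 63373352 to 63373693, with a score of 3.03 (the authors' p = 0.00122), within the top 7.90% of the list. The other hMeDIP-seq peak of that comparison, on exon 11 from 63375730 to 63376046, scored 1.30. The maternal and adult hMeDIP-seq lists had 0 peaks in Blk. The MeDIP-seq peaks had scores of 1.37 on exon 12 and 1.33 in intron 1 in the maternal comparison and 1.42 in intron 1 in the adult comparison. The 5 peaks of Blk lay at 5 places, each in 1 list.

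Beyond the 3′ end of Blk, MeDIP-seq peaks lay at 3 places. At that 6764 to 6823 bp away (63365637 to 63366072), the score was 1.45 in the maternal-plus-adult, 2.93 in the maternal and 2.59 in the adult comparison (the authors' p = 0.0733, 0.00167 and 0.00485). Another place 5128 to 5144 bp away scored 1.82 in the maternal and 1.59 in the adult comparison. Upstream, 4837 to 4839 bp from the gene, peaks of the same comparisons scored 1.46 and 1.49. A single maternal peak 8064 bp downstream scored 1.35. In all of these, 0% of the 51-bp windows had another exact copy in the genome.

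Bank1 encodes a scaffold protein that links the B cell receptor to tyrosine kinases and calcium release. It lies on chromosome 3 from 136053363 to 136326066 on the minus strand, with 17 exons in its principal transcript. Bank1 had 5, 9 and 11 MeDIP-seq peaks in the maternal-plus-adult, maternal and adult comparisons and 6, 5 and 5 hMeDIP-seq peaks. None of the 41 peaks touched an exon. A total of 32 of them were in 2 short stretches of intron 7, which hold repeated DNA.

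The first stretch, from 136118282 to 136122552 (4.27 kb), had 14 peaks, 8 by MeDIP-seq and 6 by hMeDIP-seq. The second, from 136173721 to 136180908 (7.19 kb), had 18 peaks, 8 by MeDIP-seq and 10 by hMeDIP-seq. All 16 hMeDIP-seq peaks of Bank1 and all 5 of its MeDIP-seq peaks in the maternal-plus-adult comparison lay in these stretches. The peaks there were at least 93.2% repeat-masked in the reference, and 87.4% to 100% of their 51-bp windows, the length of the reads, had another exact copy in the genome, with up to 2399 copies over both strands. A single read of that length cannot be placed in 1 copy, and how far these peaks stem from Bank1 itself was not tested.

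The strongest peak of all 9 genes was in the second stretch. By MeDIP-seq, the place from 136178412 to 136178831 scored 1.8 in the maternal-plus-adult, 6.09 in the maternal and 3.95 in the adult comparison (the authors' p = 0.0362, 5.56e-10 and 3.94e-05). The maternal score was within the top 0.893% of its list. Beside it, the place from 136179114 to 136179519 scored 1.62, 3.94 and 2.38 in the same lists, and the place from 136179625 to 136180042 scored 4.39 in the maternal and 2.75 in the adult comparison. The maternal list was thus highest at these 3 neighbouring places.

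In the first stretch the order was another one and differed by place. The place from 136120213 to 136120574 scored 1.90, 2.04 and 2.90 by MeDIP-seq in the maternal-plus-adult, maternal and adult comparisons. The place from 136120870 to 136121361 scored 1.87 by MeDIP-seq in the maternal-plus-adult and 1.44 in the adult comparison. At the place from 136121401 to 136122552, peaks of all 6 lists met, which no other place of the 9 genes showed. Its MeDIP-seq scores were 1.98, 1.56 and 2.56, and its hMeDIP-seq scores were 2.43, 1.87 and 2.44, in the same order. The peaks of this place overlap as a chain: where peaks had to share 50% of the shorter one to be joined, 0 places had peaks of all 6 lists.

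The hMeDIP-seq peaks of the stretches had scores of 1.39 to 2.85. The highest in the maternal-plus-adult and maternal lists was at 136174695 to 136175266, with scores of 2.85 and 2.42, where the adult list had 2.32. The highest in the adult list was at 136118282 to 136119019, where the scores were 1.75 in the maternal-plus-adult, 2.17 in the maternal and 2.51 in the adult list. At 136173721 to 136174393 the scores were 1.63, 2.18 and 1.39, and at 136180154 to 136180908 they were 2.22, 1.56 and 1.89. By score, no list was the highest at all 4 places. Scores of different lists were not scaled to each other, here and at the MeDIP-seq places of Bank1. Within their own lists, the peaks at 136118282 to 136119019 were in the top 53.3% (maternal-plus-adult), 19.2% (maternal) and 23.3% (adult).

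Outside both stretches, Bank1 had 9 MeDIP-seq peaks, 4 in the maternal and 5 in the adult list, and 0 hMeDIP-seq peaks. They scored 1.30 to 1.96 and were 56.6% to 99.2% repeat-masked, but 32.9% of windows at most were multi-copy. The highest were at 136101431 to 136101825 in intron 8, with scores of 1.95 in the maternal and 1.96 in the adult list, the place whose sequence is printed above. Without the peaks of the 2 stretches, Bank1 had a peak in the maternal and adult MeDIP-seq lists only. The members with a peak were then 1, 4 and 4 by MeDIP-seq and 4, 1 and 1 by hMeDIP-seq in the maternal-plus-adult, maternal and adult comparisons.

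**Figure D4:**
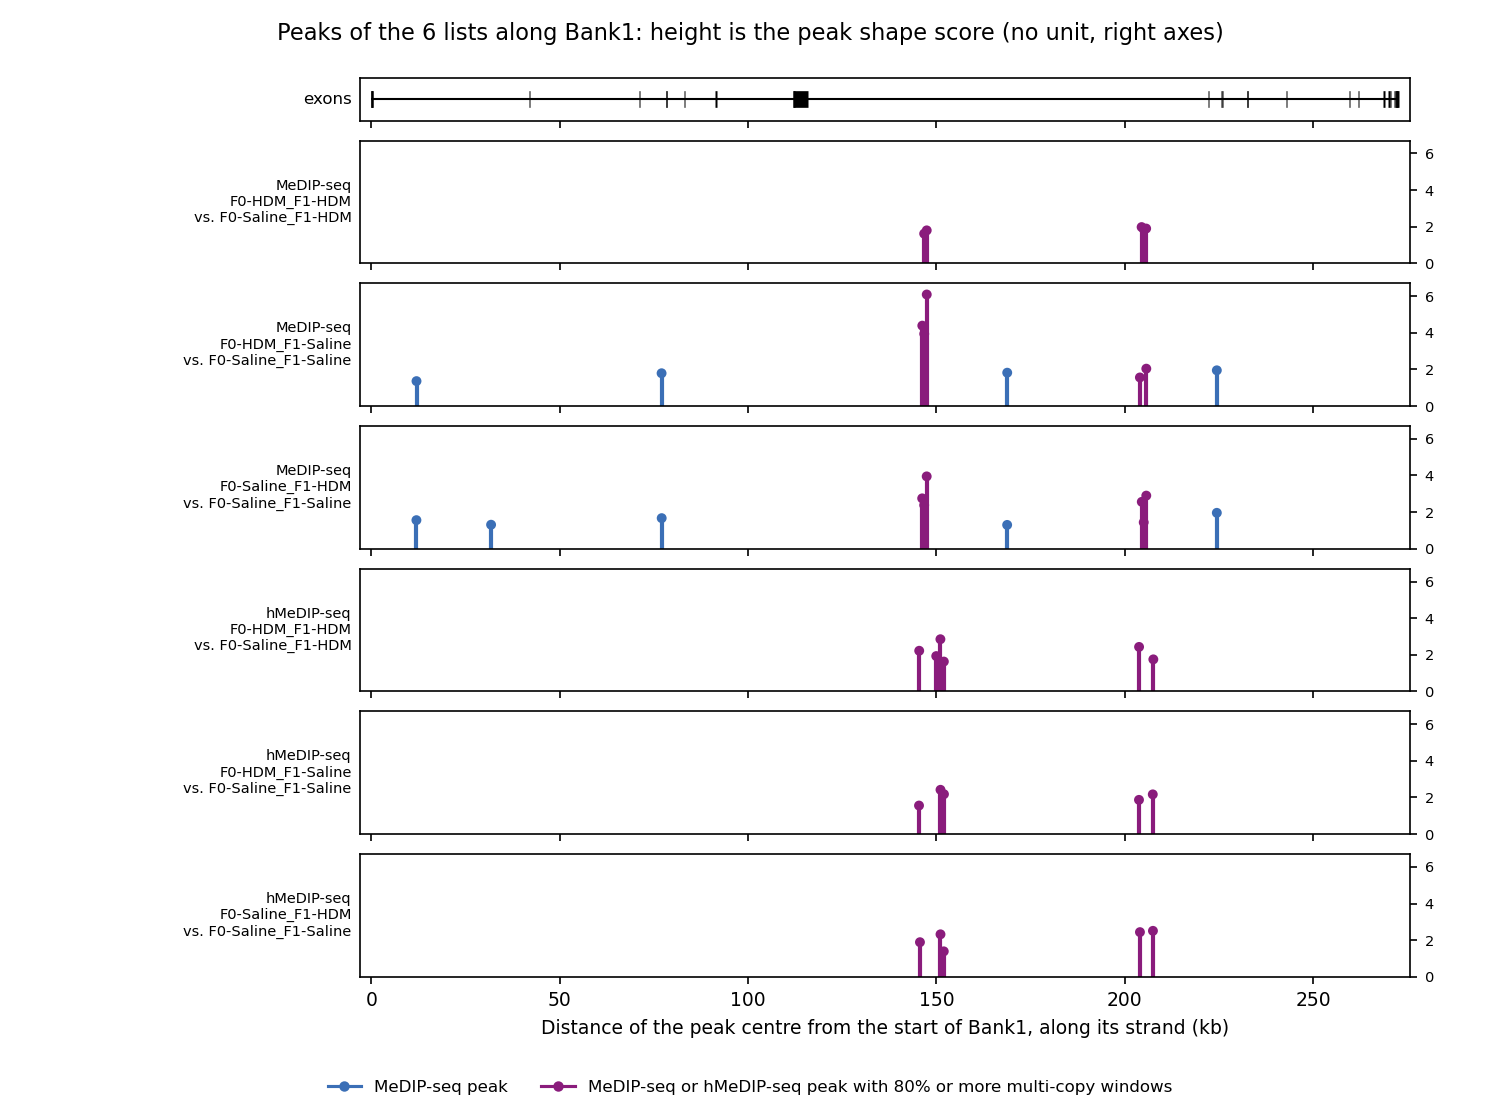
Peaks along Bank1 by distance of the peak centre from the start of the gene, in kb along its strand (horizontal axis), with 1 panel per list and the peak shape score, which has no unit, as height. The top panel shows the exons of all its transcripts, and peaks with 80% or more multi-copy windows have a colour of their own. These gather about 149 kb and 206 kb into the gene, in every list, and the highest has a score of 6.09 in the maternal MeDIP-seq panel.

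The surface receptors had few peaks. Ms4a1 encodes CD20, the marker by which B cells are often identified. It lies on chromosome 19 from 11249675 to 11266241 on the minus strand and had 1 peak in all, an hMeDIP-seq peak of the maternal-plus-adult comparison in intron 1 (11260665 to 11261008) with a score of 1.78 (the authors' p = 0.0379). The gene 4930526L06Rik overlaps it there. Cr2 encodes the complement receptors CD21 and CD35 and lies on chromosome 1 from 195136811 to 195176716. It had 0 peaks at distance 0 and 0 within 10000 bp in all 6 lists, and its promoter window holds 14 CpG sites.

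Fcer2a encodes CD23, the low affinity receptor for IgE, and lies on chromosome 8 from 3681737 to 3694175 on the minus strand. It had 3 MeDIP-seq peaks at distance 0, all in intron 9, and 0 hMeDIP-seq peaks. The place from 3685165 to 3685595 scored 1.56 in the maternal and 1.29 in the adult comparison, and the place from 3686626 to 3687061 scored 1.34 in the maternal comparison. At 152 to 202 bp upstream of the gene, MeDIP-seq peaks scored 1.51 in the maternal and 1.34 in the adult comparison (3694327 to 3694752). They overlapped a RefSeq promoter window of Fcer2a with 3 CpG sites, the 1 window of 9 that any peak overlapped. At this place, 79.9% and 88.0% of the peak was repeat-masked and the peaks held 1 and 0 CpG sites.

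An hMeDIP-seq place 2209 to 2251 bp beyond the 3′ end of Fcer2a had peaks in all 3 lists. From 3678842 to 3679527, it scored 2.07 in the maternal-plus-adult, 2.09 in the maternal and 4.32 in the adult comparison (the authors' p = 0.0191, 0.0182 and 7.64e-06), the last within the top 4.69% of its list. Its peaks held 6.12 to 7.63 CpG sites per 100 bp and lay in Trappc5, which encodes a subunit of a vesicle transport complex.

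The CpG content of the peaks differed by assay. The MeDIP-seq peaks in the members' spans had a median of 1.23 CpG sites per 100 bp (range 0 to 3.02, 78 peaks), and the hMeDIP-seq peaks a median of 3.96 (range 1.98 to 7.97, 42 peaks). The whole lists differed likewise, with medians of 0.735 to 1.05 in the MeDIP-seq lists and 3.47 to 4.08 in the hMeDIP-seq lists. In Pax5 the medians were 1.04 and 3.21 CpG sites per 100 bp, in Ebf1 0.950 and 2.99, and in Bank1 1.63 and 5.58 for MeDIP-seq and hMeDIP-seq. The Bank1 values come largely from its multi-copy stretches. Outside them its MeDIP-seq median was 0.260, and it had no hMeDIP-seq peak. The members other than Bank1 had medians of 1.04 and 3.08 for MeDIP-seq and hMeDIP-seq. By median, the peaks of Pax5 and Ebf1 lay mostly outside repeats. The median repeat-masked share was 21.6% and 18.3% for their MeDIP-seq peaks and 3.95% and 4.66% for their hMeDIP-seq peaks. In Bank1 it was 100% for both assays. The 4 Pax5 places with a peak in all 3 MeDIP-seq lists differed from this. Their median masked shares were 92.1% (exon 10), 86.2% (intron 8), 73.3% (intron 5) and 23.9% (intron 6).

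**Figure D5:**
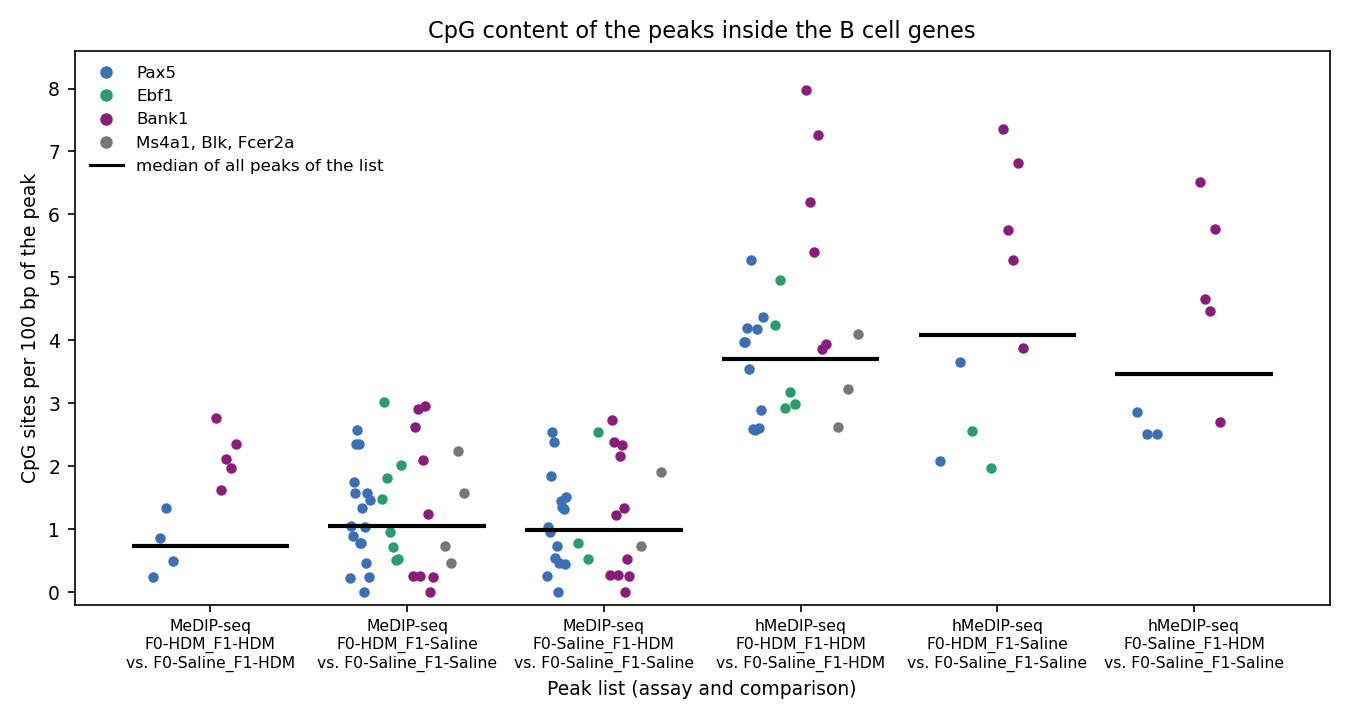
CpG sites per 100 bp (vertical axis) of every peak inside the B cell genes, by peak list (horizontal axis). Points are single peaks, coloured by gene, and the black lines are the medians over all peaks of a list, 0.735 to 1.05 by MeDIP-seq and 3.47 to 4.08 by hMeDIP-seq. The Bank1 points reach 7.97 in the hMeDIP-seq lists, where all of them are peaks of the multi-copy stretches.

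Most member peaks were close to the lists' limit, as were most peaks of the lists. Of the 103 peaks at distance 0, 16 had a p of 0.01 or less (15.5%), beside 16% of all 329018 peaks. Of the 16, 13 were in Bank1, 2 in Pax5 and 1 in Blk. At 0.001 or less there were 5, beside 5.95% of all peaks, 4 of them in the multi-copy stretches of Bank1 and the other the hMeDIP-seq peak on exon 5 of Pax5. Outside the stretches, 3 peaks at distance 0 had a p of 0.01 or less. By place within their own lists, they were the hMeDIP-seq peak on exon 5 of Pax5 (top 4.72%, maternal-plus-adult), the MeDIP-seq peak in the untranslated part of exon 10 of Pax5 (top 7.45%, adult) and the hMeDIP-seq peak on exon 13 of Blk (top 7.90%, maternal-plus-adult). With 1 library per group none of them can be set against the spread between mice.

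Over all members, the 103 peaks lay at 54 places, of which 22 had a peak in 1 list, 14 in 3 or more lists and 2 in both assays. Of 35 MeDIP-seq places, 8 had a peak in all 3 lists, 15 in the maternal and adult lists, 7 in the maternal list alone, 4 in the adult list alone and 1 in the maternal-plus-adult and adult lists. Over all 98087 MeDIP-seq places of the genome, these shares were 12.4%, 42.7%, 34.8%, 9.08% and 0.792% in the same order. No MeDIP-seq place of the members had a peak in the maternal-plus-adult list alone, beside 0.224% of all places. Of 21 hMeDIP-seq places, 12 had a peak in the maternal-plus-adult list alone, 6 in all 3 lists, and 3 in that list and 1 of the others. Over all 93594 hMeDIP-seq places, 44.8% had a peak in the maternal-plus-adult list alone, 22.6% in all 3 lists, 14.9% in that list and the maternal one and 11.1% in that list and the adult one. Each of these 21 hMeDIP-seq places, counted at distance 0, had a peak of the maternal-plus-adult list. By span, Ebf1 also had a place on exon 8 with a peak in the maternal hMeDIP-seq list alone. In each assay the largest class was the same among the members as over all places. By MeDIP-seq, places in all 3 lists outnumbered those in the maternal list alone among the members, but not over all places. The smaller hMeDIP-seq classes also changed order, with 1 place shared with the maternal list and 2 with the adult list. Of the members' places in all 3 lists, 4 of 8 by MeDIP-seq and 5 of 6 by hMeDIP-seq were in the multi-copy stretches of Bank1.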

How the data were processed

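Lung DNA of 4 groups of male mice was sequenced as 8 libraries, 1 per group and assay. Bowtie 0.12.9, CASAVA 1.8.0, FastQC and mm10 are named in the submitters' processing notes, and the paper's methods name CLC Genomics Workbench for mapping paired 51-bp reads and calling peaks at a false discovery rate that the lists do not carry. The score in each list is the peak shape score deposited by the authors. The authors also deposited a p-value per peak, unadjusted and listed up to 0.1, which matches the score's upper tail under a normal law when recomputed. The source of the lists' gene names is not given in the sources used here, and reads were not analysed.

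Peaks were assigned to the 9 genes by the lists' gene columns, and also by overlap with the spans of GENCODE vM21. Places are peaks merged where they share at least 1 bp. CpG sites, repeat masking (lower case in the reference) and exact copies of 51-bp windows were computed on GRCm38.p6, and promoter windows are those of RefSeq on that assembly. The background is the share of all 36297 named genes with a peak. Named are all 9 genes, with every peak that the gene columns gave them. Where a list had over 5, at least the one of lowest p and those at places in both assays or in 3 or more lists are named. Of the other B lineage genes, the 3 with the lowest p in each list are named, except 1 result that is not reported here. Members and gene lists were chosen with earlier results of these data known. Alternatives were a p of 0.01 or 0.001, assignment by span, windows of 5000 and 20000 bp, other overlaps, no places with peaks of all 6 lists and, chosen after seeing the data, no peaks of the multi-copy stretches of Bank1. The interval functions and the copy counts were tested on simulated data with known answers. Tools were matplotlib 3.10.9, numba 0.67.0, numpy 2.4.6, Python 3.11.15, scipy 1.17.1 and pandas 2.3.3. No p-value was computed between groups.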

Additional observations from a re-analysis of the deposited data

How the results depend on the processing

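Of 84 values recomputed under another setting, 46 stayed within 1.5 times the reported one and 38 moved. Values below are in the order maternal-plus-adult, maternal and adult comparison. With a p of 0.01 or less, the members with a peak at distance 0 were 0, 1 and 2 by MeDIP-seq and 3, 1 and 1 by hMeDIP-seq, and their peaks 0, 3 and 6 and 4, 1 and 2. With a p of 0.001 or less, the members were 0, 1 and 1 and 1, 0 and 0, and the peaks 0, 3 and 1 and 1, 0 and 0. Within 5000 bp in place of 10000 bp, the MeDIP-seq peaks near a member were 0 and 4 in the maternal-plus-adult and maternal comparisons, and the hMeDIP-seq peaks 1, 1 and 1. Without the 2 multi-copy stretches of Bank1, an alternative chosen after seeing the data, the maternal-plus-adult MeDIP-seq list had 1 member with 4 peaks and 0.412 peaks per 100 kb, the maternal hMeDIP-seq list 1 member with 2 peaks and 0.412 per 100 kb, and the adult hMeDIP-seq list 1 member with 3 peaks and 0.309 per 100 kb. Assignment by span, a window of 20000 bp, other definitions of overlap and leaving out the place with peaks of all 6 lists moved no count of members or peaks by over 1.5 times, although Ebf1 has 18 peaks by span against 1 by the gene columns. No paired analysis was possible because each group had 1 library, and for the same reason no library could be left out. The lists give no reads, so the depth and the counting error behind a peak are unknown.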

Other observations

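Other genes of the B lineage, listed by role, had peaks as well. Of 50 such genes, 11, 28 and 26 had a MeDIP-seq peak at distance 0 in the maternal-plus-adult, maternal and adult comparisons, and 24, 15 and 19 an hMeDIP-seq peak. These are 22.0%, 56.0% and 52.0% and 48.0%, 30.0% and 38.0% of them. Of all named genes, 7.67%, 34.4% and 27.9% and 39.3%, 22.2% and 24.3% had one, with no account taken of gene length and no test. The shares have unlike bases, since some of the 50 genes are not named in the peak lists. Named were 8 of 10 precursor and plasma cell genes and 11 of 12 transcription factors. Of the receptor signalling genes 11 of 12 were named, and of the surface receptors and coreceptors 14 of 16. Among hMeDIP-seq peaks, Irf8, a transcription factor of B and myeloid cells, scored 4.14 in the maternal-plus-adult comparison (the authors' p = 1.77e-05, chromosome 8, 120753391 to 120753744) and 2.50 in the maternal comparison. Tcf3, which encodes the E2A proteins that act with Ebf1, scored 3.00 and 2.16 at one place in those comparisons and 4.06 at another (80409952 to 80410677 on chromosome 10) in the adult comparison. Pik3ap1, an adaptor that couples the B cell receptor to PI3 kinase, scored 3.38 in the maternal-plus-adult and 2.97 in the adult comparison at different places. Pik3cd, the PI3 kinase subunit of leukocytes, scored 3.50 in the adult comparison, and Vav1, an exchange factor of antigen receptor signalling, scored 1.93 in the maternal comparison.

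By MeDIP-seq, Prkcb, the protein kinase C of the B cell receptor pathway, had a peak at one place on chromosome 7 (122366371 to 122366780) in all 3 lists, with scores of 1.60 in the maternal-plus-adult, 2.64 in the maternal and 2.70 in the adult comparison. Blnk, the linker downstream of Syk, scored 3.11 in the maternal and 2.60 in the adult comparison, and Bach2, a factor that restrains plasma cell formation, scored 2.43 and 2.32. Plcg2, a phospholipase that relays the signal below the receptor, scored 1.46 in the maternal-plus-adult comparison. In that order of comparisons, the 9 T cell identity genes set beside the B cell genes had 0, 8 and 4 MeDIP-seq and 22, 9 and 11 hMeDIP-seq peaks at distance 0, and the 9 lung epithelial identity genes had 0, 3 and 1 and 3, 0 and 2. Per 100 kb of span, hMeDIP-seq peaks numbered 2.58, 0.927 and 0.824 in the B cell genes, 8.39, 3.43 and 4.19 in the T cell genes and 4.56, 0 and 3.04 in the epithelial genes. MeDIP-seq peaks numbered 0.927, 3.92 and 3.19, then 0, 3.43 and 1.53, and 0, 4.56 and 1.52. These sets span 971, 262 and 65.9 kb, and gene length was not accounted for. Every list of other B lineage genes held more hMeDIP-seq peaks per 100 kb than the 9 genes. The values ran from 3.18 to 6.12, from 0.972 to 2.10 and from 1.06 to 2.96 in the same order of comparisons. The 0.972 of the surface receptors was close to the 0.927 of the 9 genes.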
